A study of Mus musculus with 37 samples.

Results

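Tight junctions seal the space between neighbouring epithelial or endothelial cells. The genes described here encode 8 claudins (Cldn1, Cldn3, Cldn4, Cldn5, Cldn7, Cldn8, Cldn10 and Cldn15), occludin (Ocln) and the scaffold protein ZO-3 (Tjp3). A probe set was taken for a gene where it was annotated to that symbol alone. Each of the 10 genes had 1 such probe set, out of 19937 genes measured this way, and all 10 passed the filter on low values in 37 of 37 arrays.

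The glands came from mice of the FVB strain that were homozygous for a deletion of PTP1B (KO, PTP1B-/-) or wild type (WT). PTP1B is the tyrosine phosphatase encoded by Ptpn1, and the deletion had been crossed to FVB for at least 7 generations. Female mice were mated at 12 weeks of age. Whole glands were taken from nulliparous females in oestrus (P0) and at pregnancy days 3, 7, 10 and 15 (P3 to P15), and total RNA was hybridised to Affymetrix whole-transcript arrays. From P0 to P15 the KO groups held 4, 3, 5, 3 and 4 arrays and the WT groups 4, 3, 4, 3 and 4. The deletion is present in all cells of the animal, so the arrays do not separate an effect in the epithelium from an effect elsewhere. Nothing in the labels says whether replicates were separate animals, so p-values measure the spread between arrays only.

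Claudins are membrane proteins with 4 passes whose extracellular loops meet those of the neighbouring cell and set which ions and solutes pass between cells. Some claudins tighten the junction and others form pores in it. Occludin lies in the same strands, and ZO proteins tie the strands to actin beneath the membrane. In the mammary gland the junctions between alveolar cells are leaky during pregnancy and close around birth, which keeps milk apart from the blood.

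Ptpn1 lay between 5.36 and 6.49 (log2 intensity) in 18 KO arrays and between 7.90 and 9.06 in the 18 WT arrays. The array labelled KO P15 replicate 3 read 8.68, inside the WT range, and was kept under its label. Lymphocyte markers were high on KO P10 replicates 2 and 3 (scores of 3.96 and 3.94) and on WT P7 replicate 1 (1.14), and lay at 0.49 or lower on the other 34 arrays. Skeletal muscle markers were high on KO P3 replicate 1 (4.59), KO P7 replicate 3 (2.12) and WT P0 replicate 4 (4.34). The epithelial marker score is the mean of the log2 values of 20 genes such as Krt8 and Epcam, each centred on its mean over all arrays. At P15 it lay between 0.55 and 0.60 in KO glands and between 0.51 and 0.73 in WT glands. At P0 it spread from -0.53 to 0.17 in KO glands and from -1.10 to 0.26 in WT glands, where WT P0 replicate 2 held the 0.26 and the next array read -0.57. Markers of the milk-secreting epithelium were lowest at P3 and highest at P15, with mean scores of -0.85, -0.93, -0.26, 0.75 and 1.93 from P0 to P15 in KO glands and -1.04, -1.47, -0.61, 0.33 and 1.88 in WT glands.

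**Figure D1:**
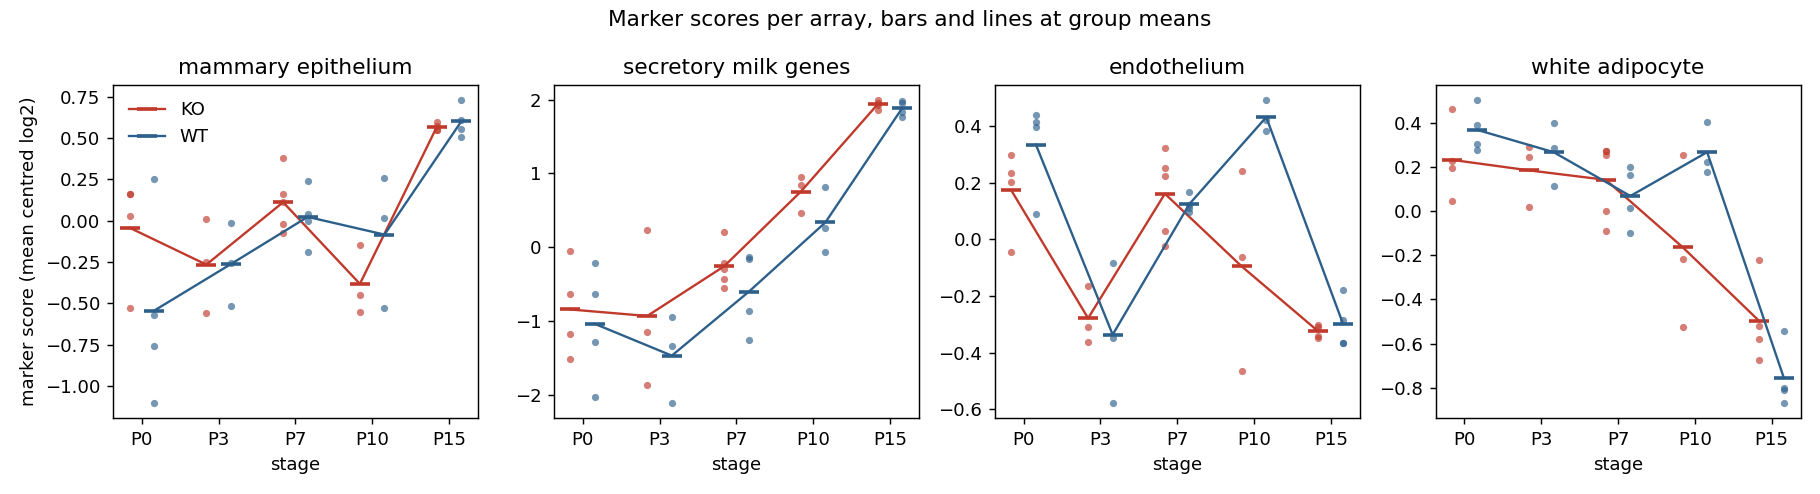
Marker scores (vertical axes, mean centred log2 intensity) of mammary epithelium, secretory milk genes, endothelium and white adipocytes against stage, with 1 point per array, KO left of WT, and bars joined by lines at group means. The epithelial and milk scores were highest at P15 in both genotypes, and the mean endothelial score of WT glands was highest at P10 (0.43).

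The stretches of 250 bases before the transcription start are shown for 5 of the genes, from RefSeq on build GRCm38.p6. Cldn3 and Cldn4 were chosen because they are neighbours on chromosome 5 (chr5:134986214-134987476 and chr5:134945123-134946934), with 0 protein-coding genes between them, and were called in opposite directions at P15 against P0. Tjp3, Ocln and Cldn7 were chosen because they rose with pregnancy in both genotypes. For these 3 genes RefSeq gives more than 1 start, and a window that holds the searched E-box is shown. The other windows of Ocln (chr13:100552719-100552968) and Cldn7 (chr11:69964529-69964778) hold 0 E-boxes, and that of Tjp3 holds 1. For Ocln and Cldn7 the E-boxes shown therefore follow from the choice of window. The capitals mark CACCTG or its reverse complement CAGGTG, the E-box bound by repressors of the Snail and ZEB families.
Cldn3, chr5:134985964-134986213, plus strand: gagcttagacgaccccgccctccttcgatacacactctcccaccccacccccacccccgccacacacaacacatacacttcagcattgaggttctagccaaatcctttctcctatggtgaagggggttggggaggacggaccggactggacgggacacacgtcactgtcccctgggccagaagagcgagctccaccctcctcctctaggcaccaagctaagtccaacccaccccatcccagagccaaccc
Cldn4, chr5:134946935-134947184, minus strand: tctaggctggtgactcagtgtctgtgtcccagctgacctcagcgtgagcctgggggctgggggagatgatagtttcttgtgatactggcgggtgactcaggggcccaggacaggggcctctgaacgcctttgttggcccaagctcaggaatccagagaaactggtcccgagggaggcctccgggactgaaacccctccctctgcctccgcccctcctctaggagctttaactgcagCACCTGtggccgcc
Tjp3, chr10:81291582-81291831, minus strand: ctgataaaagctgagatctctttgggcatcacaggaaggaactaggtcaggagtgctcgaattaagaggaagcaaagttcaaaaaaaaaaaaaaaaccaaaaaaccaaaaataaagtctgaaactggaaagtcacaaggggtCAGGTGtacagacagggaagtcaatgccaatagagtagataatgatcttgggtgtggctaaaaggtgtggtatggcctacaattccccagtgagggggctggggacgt
Ocln, chr13:100552499-100552748, minus strand: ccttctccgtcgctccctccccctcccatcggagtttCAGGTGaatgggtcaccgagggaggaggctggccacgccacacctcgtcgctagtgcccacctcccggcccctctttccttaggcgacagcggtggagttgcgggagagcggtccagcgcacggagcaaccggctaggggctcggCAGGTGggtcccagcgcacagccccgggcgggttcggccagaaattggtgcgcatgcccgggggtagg
Cldn7, chr11:69965171-69965420, plus strand: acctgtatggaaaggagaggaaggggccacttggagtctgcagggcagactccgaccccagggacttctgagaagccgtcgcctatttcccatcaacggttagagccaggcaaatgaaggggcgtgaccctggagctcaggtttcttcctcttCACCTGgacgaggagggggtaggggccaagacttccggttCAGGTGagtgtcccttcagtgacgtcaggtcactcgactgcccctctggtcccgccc

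RefSeq windows were found for 9 of the 10 genes, 13 windows in all, and Cldn8 had no window in the table. The E-box stood in 5 of the 13 windows, from 4 genes, and in 17.2% of the 32851 windows of this length in the table. It was present in the Cldn4 window and in no position of the Cldn3 window. The GC box GGGCGG, searched on both strands, stood in 9 of the 13 windows and in 32.7% of all windows. The grainyhead-like motif AACNNGTT and the STAT motif TTCNNNGAA each stood in 1 of the 13, against 3.64% and 7.02% of all windows. The ETS motif CGGAAG stood in 2 of the 13 and in 13.6% of all windows, and the TATA box TATAAA in 0 of the 13 and in 12.4%. These matches describe the letters and do not show binding.

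Between P0 and P15 most of the junction genes changed, and they did not change in the same direction. In KO glands 5 of the 10 were higher at P15 (Tjp3, Ocln, Cldn3, Cldn7 and Cldn8), 2 were lower (Cldn4 and Cldn10) and 3 did not pass the test. In WT glands 6 were higher, the same 5 and Cldn1, and 3 were lower, Cldn4, Cldn10 and Cldn15, with Cldn5 not passing. Calls are at an adjusted p below 0.05 in limma, with Benjamini-Hochberg adjustment over 16865 genes. Among all genes tested 19.5% were called higher and 21.8% lower in KO glands, and 21.6% higher and 27.3% lower in WT glands. The median difference of the 10 genes was 0.39 on the log2 scale in KO glands, beside 0.01 over all genes, and 1.11 in WT glands, beside -0.06 over all genes. The P15 and P0 arrays did not overlap for 6 of the 10 genes in KO glands and 7 in WT glands. Among all genes tested, 39.1% in KO glands and 38% in WT glands did not overlap. Without the 7 arrays that stood apart the counts of called genes stayed at 7 in KO glands and 9 in WT glands. No share of all genes stands beside that fit.

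**Figure D2:**
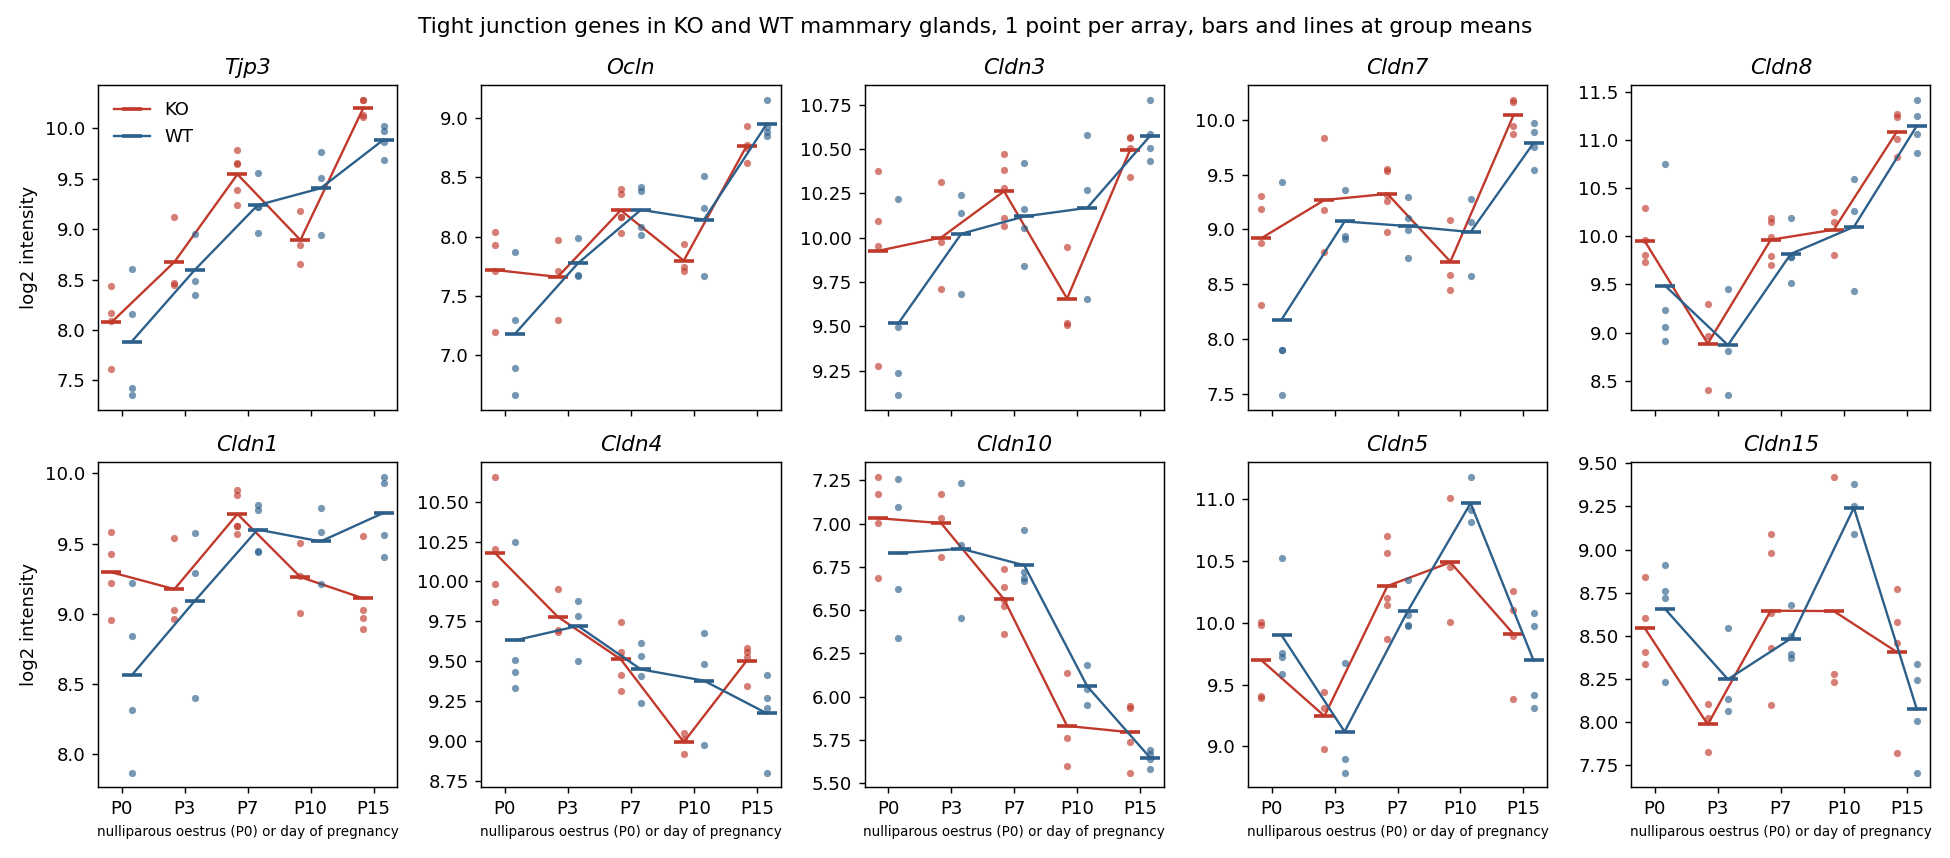
Log2 intensity (vertical axes) of the 10 genes against stage, with 1 point per array, KO in red left of WT in blue, and bars joined by lines at group means. Tjp3 and Ocln were highest at P15, Cldn10 was lowest there, and Cldn5 had its highest group mean at P10 in both genotypes.

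Tjp3 encodes ZO-3, a scaffold of the epithelial junction, and had the largest P15 minus P0 difference of the 10 genes in both genotypes. In KO glands it read 10.11, 10.28, 10.13 and 10.28 at P15, against 7.61, 8.17, 8.09 and 8.44 at P0. In WT glands it read 9.68, 10.02, 9.87 and 9.98 at P15, against 7.42, 8.60, 7.35 and 8.16 at P0. Every P15 array lay above every P0 array of its genotype. The difference was 2.13 ± 0.22 (log2, SE) in KO glands, or 4.36-fold (limma adjusted p = 5.94e-09), and 2.0 ± 0.22 in WT glands, or 4.01-fold (limma adjusted p = 1.43e-08). From P0 to P15 the group means were 8.08, 8.68, 9.54, 8.89 and 10.20 in KO glands and 7.88, 8.59, 9.24, 9.41 and 9.89 in WT glands, with SDs of 0.09 to 0.60. The KO course had a dip at P10, where 2 of its 3 arrays were rich in lymphocyte markers and the epithelial score averaged -0.38 ± 0.21 (SD, n = 3). At P10 the lymphocyte-rich arrays, replicates 2 and 3, read 8.84 and 8.65, and replicate 1 read 9.18. All 5 KO arrays at P7 lay above these values. The part of lymphocyte or epithelial content in the dip was not tested.

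Ocln encodes occludin, the first membrane protein found in tight junction strands. It read 8.62, 8.93, 8.74 and 8.77 in KO glands at P15, against 7.19, 7.93, 7.71 and 8.04 at P0. In WT glands it read 8.84, 8.92, 8.88 and 9.15 at P15, against 6.66, 7.87, 6.90 and 7.30 at P0. No P15 array overlapped the P0 arrays of its genotype. Ocln rose by 1.05 ± 0.20 in KO glands (limma adjusted p = 6.79e-05) and by 1.77 ± 0.20 in WT glands (limma adjusted p = 1.59e-08). Its group means from P0 to P15 were 7.72, 7.66, 8.22, 7.80 and 8.76 in KO glands and 7.18, 7.78, 8.22, 8.14 and 8.95 in WT glands, with SDs of 0.12 to 0.53. The P15 arrays also stood clear of the next group, P7, in both genotypes, while the P0 and P3 arrays overlapped each other.

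Cldn3, Cldn7 and Cldn8 encode claudins of epithelial barriers, and all 3 were highest at P15. Cldn7 read 9.94, 9.87, 10.16 and 10.18 in KO glands at P15, against 8.31, 9.19, 8.88 and 9.31 at P0. The WT arrays read 9.89, 9.75, 9.97 and 9.55 at P15, against 7.49, 9.43, 7.90 and 7.90 at P0, where the 9.43 is WT P0 replicate 2, the array with the highest epithelial score of its group. Cldn7 rose by 1.12 ± 0.28 in KO glands (limma adjusted p = 0.00136) and by 1.61 ± 0.28 in WT glands (limma adjusted p = 1.56e-05). Its means were 8.92, 9.27, 9.32, 8.71 and 10.04 from P0 to P15 in KO glands and 8.18, 9.07, 9.03, 8.98 and 9.79 in WT glands (SDs of 0.16 to 0.86). In each genotype only the P15 arrays stood clear of the next group in the order, and the other stages overlapped.

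Cldn8 had its lowest group mean at P3, before the rise. Its means were 9.95, 8.89, 9.96, 10.07 and 11.08 from P0 to P15 in KO glands and 9.49, 8.87, 9.82, 10.10 and 11.15 in WT glands (SDs of 0.21 to 0.85). In KO glands P15 read 11.003, 11.27, 10.82 and 11.24, against 9.96, 10.29, 9.74 and 9.81 at P0, a rise of 1.13 ± 0.29 (limma adjusted p = 0.00179). In WT glands P15 read 11.06, 11.42, 10.86 and 11.25, against 9.06, 10.74, 9.23 and 8.92 at P0, a rise of 1.66 ± 0.29 (limma adjusted p = 1.81e-05). The P15 arrays of each genotype stood clear of all its other arrays. At P3 Cldn8 was lower than at P0 in KO glands by a difference of -1.06 ± 0.31 (limma adjusted p = 0.0158), with 9.29, 8.96 and 8.40 below all 4 P0 arrays. That call was lost without KO P0 replicate 2 or KO P3 replicate 3. The P3 and P0 arrays of 24% of all genes tested did not overlap in KO glands. In WT glands the P3 minus P0 difference of Cldn8 was -0.62 ± 0.31 (limma adjusted p = 0.164).

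Cldn3 read 10.51, 10.57, 10.34 and 10.56 in KO glands at P15, against 9.28, 9.95, 10.09 and 10.37 at P0. In WT glands it read 10.59, 10.78, 10.50 and 10.43 at P15, against 9.11, 10.22, 9.24 and 9.50 at P0. The KO groups overlapped and the WT groups did not. The rise was 0.57 ± 0.21 in KO glands (limma adjusted p = 0.0327) and 1.06 ± 0.21 in WT glands (limma adjusted p = 0.000144). The KO call was lost without KO P0 replicate 1, the array with the lowest epithelial score of its group (0.35, limma adjusted p = 0.202), and also without KO P0 replicate 2 or KO P15 replicate 1, 2 or 4, where the values were 0.54 to 0.58. From P0 to P15 its means were 9.93, 10.00, 10.26, 9.66 and 10.49 in KO glands and 9.52, 10.02, 10.12, 10.17 and 10.57 in WT glands (SDs of 0.11 to 0.50), and every neighbouring pair in the order of levels overlapped.

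Cldn4, whose gene lies beside Cldn3, moved the other way. Both genes encode claudins that bind an enterotoxin of Clostridium perfringens. Cldn4 read 9.59, 9.56, 9.34 and 9.53 in KO glands at P15, against 9.98, 10.65, 9.87 and 10.20 at P0, with no overlap. In WT glands it read 9.20, 9.41, 9.27 and 8.80 at P15, against 9.33, 10.25, 9.51 and 9.43 at P0, and the groups overlapped. Cldn4 fell by 0.68 ± 0.17 in KO glands (limma adjusted p = 0.00185) and by 0.46 ± 0.17 in WT glands (limma adjusted p = 0.0273). The WT call was lost without WT P0 replicate 2 (-0.25, limma adjusted p = 0.185) and without WT P15 replicate 4 (-0.33, limma adjusted p = 0.128). From P0 to P15 the means were 10.18, 9.78, 9.51, 8.99 and 9.50 in KO glands and 9.63, 9.72, 9.45, 9.38 and 9.17 in WT glands (SDs of 0.07 to 0.42). The lowest KO value was at P10, with 9.05, 9.01 and 8.92 below every KO array of the other stages. KO P10 replicate 1, which was not rich in lymphocyte markers, held the 9.05, and the part of lymphocyte content in these values was not tested.

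Cldn10 encodes a pore-forming claudin with several isoforms, known from the kidney, and fell furthest of the 10. In KO glands it read 5.56, 5.94, 5.74 and 5.94 at P15, against 6.69, 7.17, 7.27 and 7.00 at P0. In WT glands it read 5.64, 5.58, 5.67 and 5.69 at P15, against 6.62, 7.26, 6.34 and 7.10 at P0. The groups did not overlap in either genotype. In KO glands the difference was -1.24 ± 0.16, a ratio of 0.424 (limma adjusted p = 3.30e-07). In WT glands the difference was -1.18 ± 0.16, a ratio of 0.440 (limma adjusted p = 5.63e-07). Its means were 7.03, 7.00, 6.56, 5.83 and 5.79 from P0 to P15 in KO glands and 6.83, 6.85, 6.76, 6.06 and 5.65 in WT glands (SDs of 0.05 to 0.42). In both genotypes the P10 arrays lay below all P7 arrays, so the lower level was present before P15. The P10 and P7 arrays did not overlap for 21.4% of all genes tested in KO glands and 18.3% in WT glands. Cldn10 was the only member whose P10 and P15 arrays both lay below every P0 array in both genotypes.

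Cldn1 encodes a barrier claudin of many epithelia and was the only member whose change by P15 differed between the genotypes at an adjusted p below 0.05. In KO glands it read 9.02, 8.97, 9.55 and 8.89 at P15, against 8.95, 9.22, 9.58 and 9.42 at P0. In WT glands it read 9.97, 9.56, 9.93 and 9.41 at P15, against 7.87, 9.22, 8.32 and 8.84 at P0. The KO groups overlapped and the WT groups did not. The P15 minus P0 difference was -0.19 ± 0.23 in KO glands (limma adjusted p = 0.566) and 1.16 ± 0.23 in WT glands (limma adjusted p = 0.000126). The KO difference minus the WT difference was -1.34 ± 0.33 (limma adjusted p = 0.00855), in a contrast that called 10.1% of all genes. It kept its call with each of the 37 arrays left out in turn, with values from -1.56 to -1.11 and adjusted p values up to 0.0245. Without WT P0 replicate 2, 4 of the 10 were called in this contrast, namely Cldn1, Cldn7, Cldn8 and Ocln, where 15.4% of all genes were called.

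The mean of Cldn1 was higher in KO than in WT glands at P0, P3 and P7 and lower at P10 and P15. Its means from P0 to P15 were 9.30, 9.18, 9.71, 9.26 and 9.11 in KO glands and 8.56, 9.09, 9.60, 9.51 and 9.72 in WT glands, with SDs of 0.15 to 0.61, and every neighbouring pair in the order of levels overlapped in both genotypes. KO minus WT was 0.73 ± 0.23 at P0 (limma adjusted p = 0.0881) and -0.61 ± 0.23 at P15 (limma adjusted p = 0.0888), so neither end passed alone. At P15 the KO array that overlapped the WT arrays, at 9.55, was replicate 3, the one with Ptpn1 inside the WT range. Without it Cldn1 was lower in KO glands at P15, at -0.76 (limma adjusted p = 0.0436), in a fit that called 10.6% of all genes. The mean epithelial score at P0 was also lower in WT glands, with means of -0.04 ± 0.33 in KO and -0.54 ± 0.58 in WT glands (SD, n = 4 each). With each array's epithelial score subtracted, the difference of the changes was -0.81 ± 0.28 (limma adjusted p = 0.0949). With the score as a covariate it was -0.90 (limma adjusted p = 0.0227).

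Cldn5, the main claudin of endothelium, had a course of its own. Its means from P0 to P15 were 9.70, 9.25, 10.29, 10.49 and 9.91 in KO glands and 9.90, 9.12, 10.09, 10.96 and 9.69 in WT glands (SDs of 0.17 to 0.50). At P10 the KO arrays read 11.01, 10.00 and 10.44 and the WT arrays 11.17, 10.81 and 10.91, and the WT arrays lay above all other WT arrays. P15 minus P0 was 0.21 ± 0.24 in KO glands (limma adjusted p = 0.523) and -0.20 ± 0.24 in WT glands (limma adjusted p = 0.512). In limma 9 of 15 endothelial markers were called lower and 0 higher in KO than in WT glands at P10. All 15 were called lower at P15 than at P10 in WT glands. In these comparisons 17.2% and 39.6% of all genes were called in either direction. P15 minus P10 was -0.58 ± 0.26 in KO glands (limma adjusted p = 0.0906) and -1.27 ± 0.26 in WT glands (limma adjusted p = 0.000313). The endothelial score, the mean centred log2 value of 15 genes such as Pecam1 and Kdr, had means of 0.17, -0.28, 0.16, -0.10 and -0.33 from P0 to P15 in KO glands and 0.33, -0.34, 0.12, 0.43 and -0.30 in WT glands. Cldn5 minus that score had means of 9.52, 9.52, 10.13, 10.58 and 10.23 in KO glands and 9.56, 9.46, 9.97, 10.53 and 9.99 in WT glands, so a maximum at P10 was present in both genotypes relative to the other endothelial genes.

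Cldn15 encodes a cation pore, known from the mouse intestine. In WT glands its means were 8.66, 8.25, 8.48, 9.24 and 8.07 from P0 to P15, and the P10 arrays (9.38, 9.25 and 9.09) lay above all other WT arrays. In KO glands the means were 8.55, 7.99, 8.65, 8.64 and 8.41, and the P10 arrays read 9.42, 8.23 and 8.28, where the lower values were those of the lymphocyte-rich replicates 2 and 3. Over both genotypes the SDs were 0.14 to 0.67. P15 minus P0 was -0.14 ± 0.22 in KO glands (limma adjusted p = 0.670) and -0.58 ± 0.22 in WT glands (limma adjusted p = 0.0322). The WT call was lost without WT P0 replicate 1, 2 or 3 or WT P15 replicate 1 or 3, with differences of -0.46 to -0.56 and adjusted p values up to 0.121. Over the 10 group means, in which both genes come from the same arrays, Cldn15 correlated with Cldn5 at r = 0.87, while Cldn3, Cldn7, Ocln and Tjp3 correlated with each other at r = 0.84 to 0.94.

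Most epithelial markers were higher at P15 than at P0, as were Tjp3, Ocln, Cldn3, Cldn7 and Cldn8 in both genotypes. Cldn4 and Cldn10 were lower in both genotypes. Cldn1 was called higher and Cldn15 lower in WT glands only, and Cldn5 was called in neither genotype. Of the 20 epithelial markers 11 were higher and 1 lower at P15 than at P0 in KO glands, and 15 were higher and 1 lower in WT glands, with median differences of 0.63 and 1.25. Among all genes tested 19.5% were called higher and 21.8% lower in KO glands, and 21.6% higher and 27.3% lower in WT glands. In whole glands fewer cells of a type and less RNA per cell cannot be told apart. With each array's epithelial score subtracted from every gene, Tjp3 was still higher at P15, by 1.52 ± 0.14 in KO glands and 0.86 ± 0.14 in WT glands (limma adjusted p = 3.21e-10 and 2.86e-06). Ocln was higher by 0.44 ± 0.14 in KO and 0.62 ± 0.14 in WT glands, Cldn7 by 0.51 ± 0.16 and 0.46 ± 0.16, and Cldn8 by 0.52 ± 0.20 and 0.51 ± 0.20, with limma adjusted p values of 8.82e-05 to 0.0227. With the score fitted as a covariate in place of subtraction, Tjp3 (1.49 in KO, 0.81 in WT) and Ocln (0.48 and 0.69) were still called, and Cldn7 (0.33 in KO, 0.13 in WT) and Cldn8 (0.41 and 0.29) were not, with limma adjusted p values of 0.0522 to 0.628. Cldn3 after subtraction differed by -0.04 ± 0.14 in KO glands and -0.09 ± 0.14 in WT glands (limma adjusted p = 0.791 and 0.538), so on this scale its rise was not seen. The WT rise of Cldn1 was not seen either (0.0099 ± 0.19, limma adjusted p = 0.961), and in KO glands Cldn1 was lower at P15 on this scale (-0.80 ± 0.19, limma adjusted p = 0.00124). Among all genes 2.21% were called higher and 62% lower on this scale in KO glands, and 1.38% higher and 92.3% lower in WT glands. The lower values of Cldn4 (-1.28 in KO, -1.60 in WT) and Cldn10 (-1.85 in KO, -2.33 in WT) stand beside that background.

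**Figure D3:**
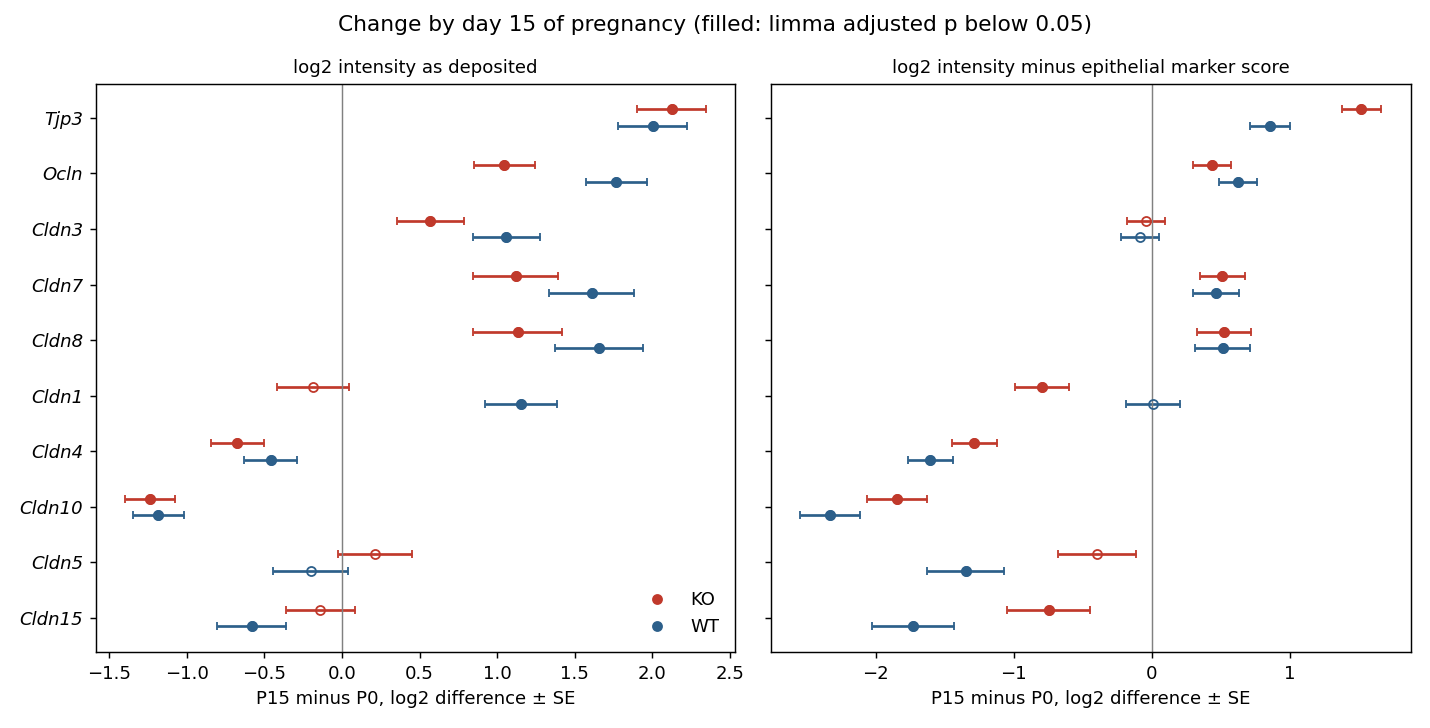
Difference of P15 minus P0 for each gene (horizontal axes, log2 ± SE), KO above WT, as deposited on the left and after subtraction of the epithelial marker score on the right, with filled points where the limma adjusted p was below 0.05. Tjp3, Ocln, Cldn7 and Cldn8 lay above 0 on both scales, and Cldn3 lay near 0 on the right.

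Earlier stages were compared with P0 through the same P0 arrays, so these comparisons share them. In WT glands at P3, 3 of the 10 genes were higher (Cldn7 0.89, Ocln 0.59 and Tjp3 0.71) and Cldn5 was lower (-0.78), where 11.6% of all genes were called higher and 6.5% lower. All 4 calls were lost in at least 1 fit that left out 1 array, as was the P3 call of Cldn8 in KO glands, where 7.8% of genes were called higher and 11% lower. At P7 in WT glands 5 were higher (Cldn1 1.04, Cldn3 0.60, Cldn7 0.85, Ocln 1.04 and Tjp3 1.35) and 0 lower, where 15.5% of genes were called higher and 13.8% lower. The calls of Cldn1, Ocln and Tjp3 held with each array left out. At P7 in KO glands Tjp3 was higher (1.47 ± 0.21) and Cldn4 (-0.67) and Cldn10 (-0.47) were lower, where 7.84% of genes were called higher and 8.34% lower, and the Cldn10 call was lost in 6 of the 37 fits that left out 1 array.

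P10 is the stage with the lymphocyte-rich KO arrays. In KO glands Tjp3 (0.81) and Cldn5 (0.79) were higher than at P0 and Cldn4 (-1.19) and Cldn10 (-1.20) were lower, beside 14.4% of all genes called higher and 16.3% lower. The Tjp3 call was lost without KO P10 replicate 1 (0.67), and the Cldn5 call without each of 4 arrays, with a value down to 0.53. In WT glands 5 genes were higher than at P0 (Cldn1 0.95, Cldn3 0.65, Cldn5 1.07, Ocln 0.96 and Tjp3 1.52) and Cldn10 was lower (-0.77), beside 11.7% of all genes called higher and 9.71% lower. The Cldn3 call was lost in 5 of the fits that left out 1 array, with a value down to 0.45. The mean epithelial score at P10 was -0.38 in KO and -0.08 in WT glands. All 12 lymphocyte markers tested were called higher in KO glands at P10, where 17.2% of all genes were called in either direction. These 12 genes make up the score that marked the lymphocyte-rich KO arrays, so that count is no separate result. Without the 7 arrays that stood apart 1 KO array was left at P10. In that fit 5 genes were called in WT glands, and no share of all genes stands beside it.

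Neighbouring stages of pregnancy were compared too. At P7 against P3, Cldn5 rose by 1.05 ± 0.25 in KO glands and 0.97 ± 0.26 in WT glands, and Cldn8 rose by 1.08 ± 0.30 in KO and 0.95 ± 0.31 in WT glands. Tjp3 (0.87) and Cldn15 (0.66) were also called in KO glands, so that 4 genes were called in KO and 2 in WT glands, where 16.9% and 10% of all genes were called. Of these calls only that of Cldn5 in KO glands held with each array left out. At P10 against P7 in KO glands Cldn3 (-0.61), Cldn4 (-0.52), Cldn10 (-0.73) and Tjp3 (-0.65) were lower, in a step that called 24% of all genes. The Cldn10 call held with each array left out, and those of Cldn3, Cldn4 and Tjp3 held in 28, 33 and 32 of the 37 such fits. In WT glands 0 of the 10 were called in that step by limma, where 0.208% of all genes were called, although 3 had an unadjusted p below 0.05 (Cldn5 0.87, Cldn10 -0.70 and Cldn15 0.76), beside 11.9% of all genes. Without the 7 arrays that stood apart 1 KO array was left at P10. The differences in KO glands were then -0.28 for Cldn3, -0.46 for Cldn4, -0.44 for Cldn10 and -0.33 for Tjp3.

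The last step was P15 against P10. In KO glands 6 genes were higher (Cldn3 0.84, Cldn4 0.51, Cldn7 1.33, Cldn8 1.01, Ocln 0.97 and Tjp3 1.31) and 0 were lower, where 32.1% of all genes were called. Without the 7 arrays that stood apart 1 KO array was left at P10, and its spread was assumed to be that of the other groups. In that fit the differences of these 6 genes were 0.51 (Cldn4) to 1.04 (Tjp3). In WT glands Cldn7 (0.81), Cldn8 (1.05) and Ocln (0.81) were higher and Cldn5 (-1.27) and Cldn15 (-1.17) were lower, where 39.6% of all genes were called. The WT calls of Cldn7, Cldn8 and Ocln were lost without WT P10 replicate 1, the array with the lowest epithelial score of that group (-0.53), where the differences were 0.61, 0.72 and 0.57. The Cldn7 call held in 33 of the 37 fits that left out 1 array and those of Cldn8 and Ocln in 36. Those of Cldn5 and Cldn15 held with each array left out.

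KO and WT glands were then compared at each stage, to ask whether loss of PTP1B altered the junction genes. In limma 0 of the 10 were called at P0, P3, P7, P10 and P15 and 0 in the mean over the 5 stages, where 1.7%, 0.119%, 0.00593%, 17.2%, 11.1% and 2.43% of all genes were called. At an unadjusted p below 0.05 there were 4 at P0 (Cldn1, Cldn4, Cldn7 and Ocln, all higher in KO), 0 at P3, 0 at P7, 2 at P10 (Cldn3 and Cldn15, both lower in KO), 1 at P15 (Cldn1, lower in KO) and 0 in the mean over stages. The shares of all genes below that unadjusted p were 20.8%, 7.1%, 2.63%, 30.8%, 23.8% and 17.8%, in the same order. At P10 all 10 differences were negative, from -0.60 to -0.03, beside a median of -0.03 over all genes. At this stage 2 of the 3 KO arrays were rich in lymphocyte markers, and the mean epithelial score was -0.38 in KO and -0.08 in WT glands. With the epithelial score subtracted 4 of the 10 differences were positive, namely those of Cldn1 (0.04), Cldn7 (0.03), Cldn8 (0.27) and Cldn10 (0.07). For Cldn15 the lymphocyte-rich KO arrays read 8.23 and 8.28 and the other KO array 9.42, against 9.09 to 9.38 in WT glands. The difference of Cldn15 was -0.60 with all arrays and turned to 0.18 without the 7 arrays that stood apart, which left 1 KO array at P10. Tjp3 at P15 was the only gene and stage at which the 10 genes' KO and WT arrays did not overlap, with 10.11 to 10.28 in KO and 9.68 to 10.02 in WT glands (0.32 ± 0.22, limma adjusted p = 0.433). At that stage the arrays of 19.1% of all genes did not overlap. KO P15 replicate 3, whose Ptpn1 lay inside the WT range, read 10.13 for Tjp3, among the other KO arrays.

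**Figure D4:**
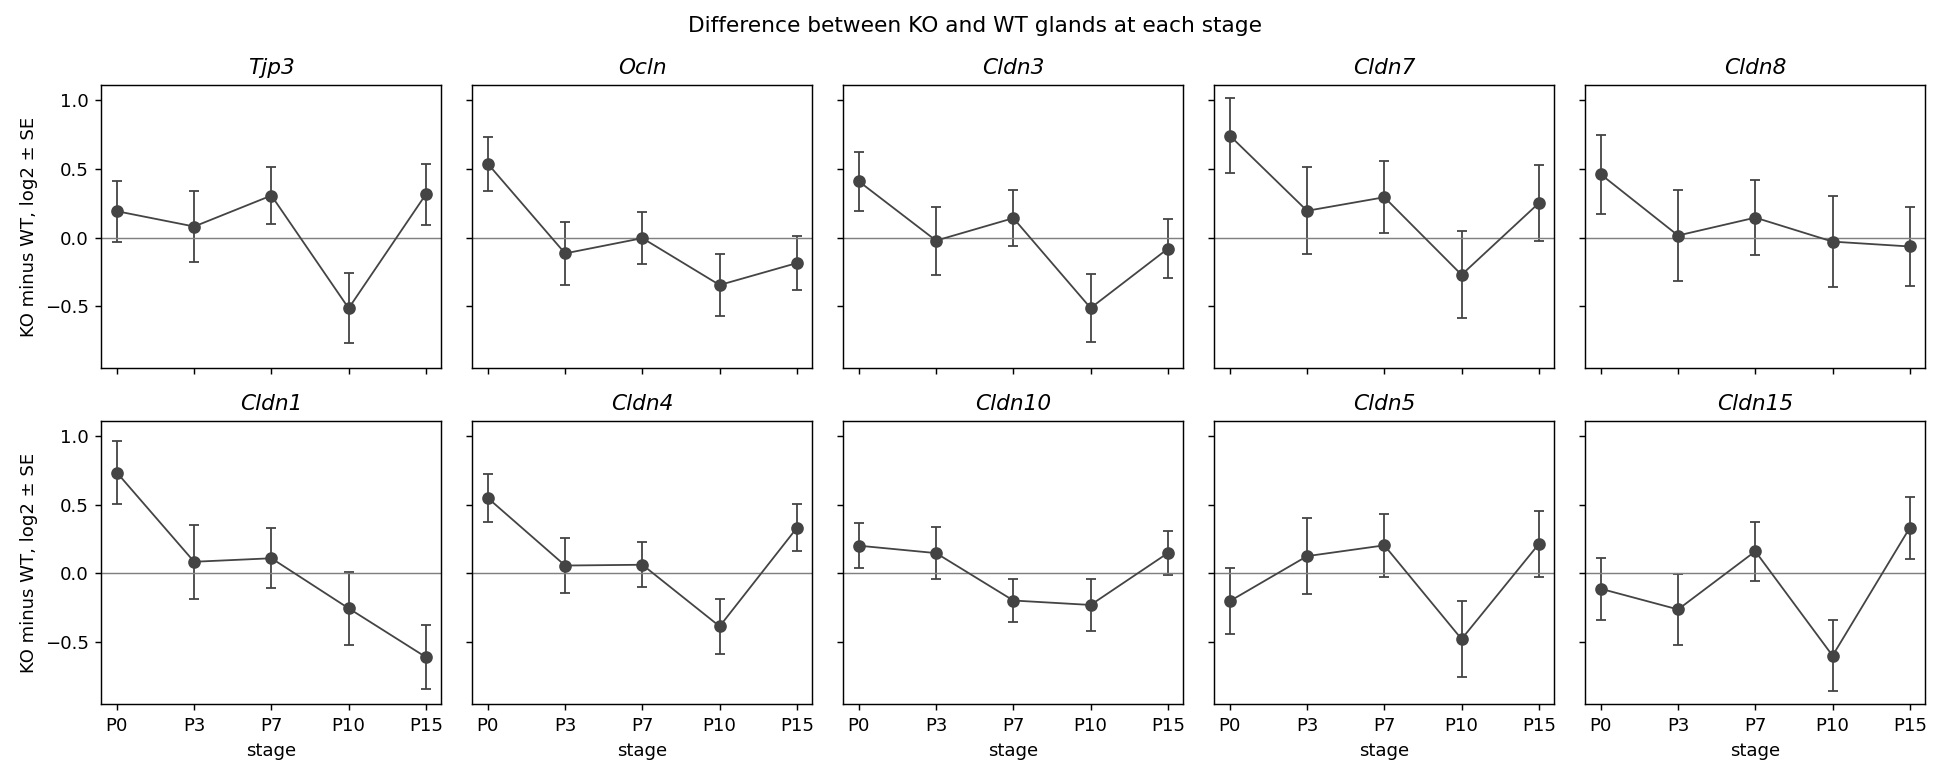
KO minus WT (vertical axes, log2 ± SE) for each gene at each stage. From P0 to P15 the differences of Cldn1 were 0.73, 0.08, 0.11, -0.25 and -0.61, and no single difference had a limma adjusted p below 0.05.

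The comparison at P0 turned on 1 array. WT P0 replicate 2 had the highest epithelial score of its group and the highest value of its group for each of the 10 genes. Without it, 6 genes were called higher in KO glands at P0: Cldn7 by 1.16, Cldn1 by 0.95, Cldn8 by 0.88, Ocln by 0.77, Cldn4 by 0.75 and Cldn3 by 0.64, with limma adjusted p values of 0.00274 to 0.0423. That fit called 10.7% of all genes. The other 3 WT arrays had epithelial scores of -1.10, -0.76 and -0.57, below all 4 KO arrays at P0 (-0.53 to 0.17). With the epithelial score subtracted, KO minus WT at P0 over all arrays was 0.23 for Cldn1, 0.05 for Cldn4, 0.24 for Cldn7 and 0.03 for Ocln, with limma adjusted p values of 0.193 to 0.820.

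A test of whether the genotype difference varied over the 5 stages (limma F test) called 18% of all genes and 1 of the 10, Cldn1 (adjusted p = 0.0370). Cldn4 had an adjusted p of 0.0724 and Ocln of 0.142. The Cldn1 call was lost in 13 of the 37 fits that left out 1 array, with adjusted p values up to 0.0758, and without the 7 arrays that stood apart (0.0695). Without WT P0 replicate 2, 5 genes were called, in a fit that called 26.1% of all genes.

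Other genes of the junction were counted from lists. These counts stand beside 19.5% of all genes called higher and 21.8% lower in KO glands, and 21.6% higher and 27.3% lower in WT glands. Of 11 other membrane proteins of the tight junction, 5 were higher and 4 lower at P15 than at P0 in KO glands, and 7 were higher and 4 lower in WT glands. Igsf5, an immunoglobulin-type junction protein, had the largest rise (1.94 in KO, 2.15 in WT). Marveld3, a relative of occludin, rose by 1.07 and 1.21, and Ildr1, a protein of the corners at which several cells meet, by 0.86 and 1.58. Its relative Ildr2 was lower (-0.99 in KO, -0.41 in WT), as was Jam2, a junctional adhesion molecule also made by endothelium (-1.12 in KO, -0.99 in WT). Their median difference was 0.43 in KO and 0.35 in WT glands.

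Of 14 plaque and scaffold genes tested, 5 were higher and 4 lower in KO glands, and 6 were higher and 6 lower in WT glands. Cgn, which encodes cingulin, rose by 1.43 in KO and 1.47 in WT glands, Patj by 1.02 and 1.29, and Magi3 by 0.96 and 1.21. Sympk, whose product symplekin also works in messenger RNA 3' end processing, rose by 1.98 and 2.01. Tjp1, which encodes ZO-1, did not pass the test (0.05 in KO, 0.22 in WT), unlike Tjp3. Of 16 polarity genes, 8 were higher and 0 lower in KO glands and 10 were higher and 1 lower in WT glands, with Pard6b at 1.42 and 1.5, Llgl2 at 1.05 and 0.94 and Dlg1 at 0.66 and 0.67. Of 15 adherens junction genes, 3 were higher and 5 lower in KO glands and 6 were higher and 4 lower in WT glands. Cdh1, which encodes E-cadherin and is also 1 of the epithelial markers, rose by 0.57 in KO and 1.2 in WT glands, and Nectin4 by 0.54 and 0.93. The alpha-catenin gene Ctnna1 was lower (-0.29 in KO, -0.45 in WT), and so was Cdh2, which encodes N-cadherin (-0.75 and -0.50).

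Among 14 further claudin-family genes tested, 3 were higher and 1 lower in KO glands, and 4 were higher and 2 lower in WT glands. Cldn6, a claudin of embryonic epithelia, had the largest difference (-2.01 in KO, -1.38 in WT), beside Cldn20 (0.48 and 0.75), Cldn17 (0.47 and 0.64) and Cldn12 (0.37 and 0.95). In the mean of KO minus WT over the 5 stages, Tjp1 was lower in KO glands (-0.21, limma adjusted p = 0.0144), as were Vcl, which encodes vinculin (-0.25, limma adjusted p = 0.00415), and Cdh5, the cadherin of endothelium (-0.21, limma adjusted p = 0.0417). These were the 3 calls in that comparison among the 70 genes tested of these lists, beside 2.43% of all genes. At P10 alone 7 of the 14 plaque genes and 8 of the 15 adherens junction genes were lower in KO glands and 0 higher. The other lists held fewer calls. There 2 of 16 polarity genes and 1 of 11 other membrane proteins were lower and 0 higher. Of the 14 further claudin-family genes 2 were higher and 0 lower. Across all genes 17.2% were called in either direction at this stage. The medians of the plaque and adherens junction lists were -0.49 and -0.50, beside -0.03 over all genes. Those of the polarity, membrane protein and further claudin lists were -0.17, -0.18 and 0.10. The lymphocyte, endothelial and epithelial scores differed between the groups at that stage, and their part in these counts was not tested.

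For each of the 10 genes the course over the 10 group means was set against 15691 other tested genes by Pearson's r. Ocln was most like Esrp1, an epithelial splicing regulator (r = 0.993, and 0.980 over the 37 arrays). Cldn3 was like Plpp2 (0.974) and Mpzl1 (0.970), with the epithelial transcription factor Grhl2 next (0.957). Esrp1 and Grhl2 are both in the epithelial marker score. Cldn7 was most like Dyrk3 (0.978), Cldn8 like Qars, a transfer RNA synthetase (0.992), and Tjp3 like Ptprv, a receptor-type tyrosine phosphatase (0.990). Cldn4 was most like Krt7, a keratin of simple epithelia that is also in the epithelial score (0.932), and Cldn10 like Pof1b (0.989). From P0 to P15 Cldn4 was called lower in both genotypes. Of the 20 genes of the epithelial score 11 were called higher in KO glands and 15 in WT glands, with 1 lower in each. Cldn5 was most like Igf2, a growth factor (0.928), and Cldn15 like Ctsl, a lysosomal protease (0.938), which was also among the 3 genes most like Cldn5 (0.915). For Cldn1 the closest was Zfx (0.933), and over the 37 arrays that correlation was 0.568, the lowest of those named here. Over the 37 arrays Cldn15 with Ctsl read 0.687, Cldn5 with Ctsl 0.737 and Cldn5 with Igf2 0.746. The other pairs named here read 0.847 to 0.980 over the arrays. Each pair of genes was measured on the same arrays, and the genes were picked for the highest values.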

How the data were processed

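Total RNA of mouse mammary glands was hybridised to 37 Affymetrix whole-transcript arrays. The deposited values are log2 intensities per probe set, processed by the authors with tools that include affy, per the submitters' processing notes; the normalisation is not given in the sources used here, and the array medians lay between 6.52 and 6.79. The highest correlation between any 2 arrays was 0.995. Of 34760 probe sets, 21640 carried 1 gene symbol, 1321 several and 11799 none; the highest probe set by mean was kept for 954 genes with more than 1. Genes above the 25th percentile (4.96) on 3 arrays or more were tested, 16865 of 19937, and 3072 were left out.

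Means of the 10 groups were fitted with limma 3.58.1 in R 4.3.3 (27 residual degrees of freedom), moderated with eBayes, and adjusted by Benjamini-Hochberg over all tested genes at a threshold of 0.05. The code was tested on simulated data. Symbols were matched to RefSeq (GRCm38.p6) for 19855 genes. The genes described and the lists were chosen with earlier results of these data known. Of each junction list, up to 4 called genes with the smallest adjusted p per contrast were named, and of like genes the 3 with the highest r. An array was taken to stand apart where a lymphocyte or muscle score lay over 1 above the median of all arrays or Ptpn1 went against the label. No batch or scan date was used, and the number of arrays limits the precision. Alternatives covered the filter, scaling, variance prior, marker scores, arrays fitted, a block on the replicate number and each array left out.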

Additional observations from a re-analysis of the deposited data

Results flagged for a closer look

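The change of Cldn1 between P0 and P15 differed between the genotypes, with a KO difference minus WT difference of -1.34 ± 0.33 on the log2 scale (limma adjusted p = 0.00855). That contrast called 1 of the 10 genes, beside 10.1% of all genes. With each array's epithelial score subtracted the Cldn1 value was -0.81 (limma adjusted p = 0.0949). The mean epithelial score at P0 was -0.04 in KO and -0.54 in WT glands. Its P15 arrays overlapped the P0 arrays in KO glands, and in WT glands all 4 P15 arrays lay above all 4 P0 arrays. The genotype difference of Cldn1 also varied over the 5 stages (limma F test, adjusted p = 0.0370), a call lost in 13 of the 37 fits that left out 1 array. The F test called 1 of the 10 genes, beside 18% of all genes. Across 60 combinations of gene and group, in the 6 groups of 4 or 5 arrays, 0 had a single array far from the rest of its group by Dixon's test. With 4 or 5 arrays this test flags only an extreme gap, so it cannot show that no array stood out. WT P0 replicate 2, on which the comparison at P0 turned, was not flagged.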

How the results depend on the processing

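The fit was repeated under 10 alternatives and with each of the 37 arrays left out. Of 220 differences of the 10 genes 62 were called, and differences called before or after the change of setting turned in sign 13 times, all when the epithelial score was fitted or subtracted. Differences not called in either turned in sign 243 times over these fits, also where a single array was left out. At P15 against P0, Cldn3 read -0.0589 with the score as a covariate and -0.0400 with it subtracted in KO glands, and -0.12 and -0.0873 in WT glands. At P15 against P10 in KO glands, Cldn3 read -0.14 and -0.11, Cldn4 -0.14 and -0.44, and Cldn8 -0.12 as a covariate. In WT glands Cldn3 read -0.30 and Cldn7 -0.0713 as a covariate and Cldn1 -0.48 after subtraction. Cldn7 at P7 against P3 in KO glands read -0.43 as a covariate. These settings remove signal shared with the epithelial markers, and further causes were not tested.

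Counts of the 10 genes that moved by over 1.5 times are given by setting, with the original count where a comparison first appears. The share of all genes called moved between settings too, so a moved count is not by itself a result about these genes. With subtraction, P15 minus P0 in WT called 15798 of 16865 genes instead of 8238, and P10 minus P7 in WT 10 instead of 35. With the covariate, KO minus WT at P15 gave 3 instead of 0, P3 minus P0 in KO 4 instead of 1, P15 minus P0 in WT 4 instead of 9, P10 minus P7 in KO 2 instead of 4, P15 minus P10 in KO 1 instead of 6, P7 minus P3 in WT 5 instead of 2, P10 minus P7 in WT 1 instead of 0, and the difference of responses 2 instead of 1. With subtraction, P3 minus P0 gave 2 instead of 1 in KO and 2 instead of 4 in WT, P10 minus P7 in KO 1, P7 minus P3 in WT 0, the difference of responses 0 and the F test 0 instead of 1. With lymphocyte and muscle scores as covariates, P10 minus P0 in KO gave 2 instead of 4, P10 minus P7 0 in KO and 1 in WT, P15 minus P10 in KO 3 and the F test 0. Without the 7 arrays that stood apart, KO minus WT at P15 gave 1, P10 minus P0 in KO 2, P3 minus P0 in WT 2, P7 minus P0 in WT 3 instead of 5, P10 minus P7 in KO 0, P15 minus P10 in KO 0, P7 minus P3 in WT 1 and the F test 0. With only the groups compared in the fit, KO minus WT at P15 gave 2, P3 and P10 minus P0 in WT 0 instead of 4 and 6, P7 minus P0 in WT 3, and P10 minus P7 7 in KO and 3 in WT. P3 minus P0 in WT gave 2 after a further quantile normalisation and 2 after centring on array medians, where KO minus WT at P10 gave 3 and the F test 2. P7 minus P3 in WT gave 1 with no filter. Some of these fits hold fewer arrays, and the causes of the moved counts were not tested.

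With 1 array left out at a time, the counts ranged over 0 to 6 for KO minus WT at P0, 0 to 1 at P10 and 0 to 1 at P15. Against P0 in KO glands they ranged over 0 to 2 at P3, 2 to 4 at P7, 2 to 4 at P10 and 6 to 7 at P15, and in WT glands over 0 to 5, 3 to 6, 5 to 8 and 7 to 9. For steps in KO glands they ranged over 1 to 6 (P7 minus P3), 1 to 5 (P10 minus P7) and 5 to 6 (P15 minus P10), and in WT glands over 0 to 3, 0 to 1 and 2 to 6. The difference of responses gave 1 to 4 and the F test 0 to 5. The highest counts for KO minus WT at P0, the difference of responses and the F test came without WT P0 replicate 2. Those fits called 10.7%, 15.4% and 26.1% of all genes. For most other fits no such share stands beside the counts.

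Replicate numbers were not treated as pairs in the main fit. Of 18 same-numbered pairs 9 correlated above 0.1 (r from -0.52 to 0.38), and 8 of 18 KO arrays correlated best with their own number. With so few arrays per stage these values cannot exclude that the numbers pair the samples. With the replicate block, P10 minus P7 in KO gave 2 instead of 4 and the F test 2 instead of 1, and 6 single differences crossed the threshold. No gene had a second probe set of its own, so the next-highest probe set was not run. Dim signal limits Cldn10, whose lowest group mean, 5.65, was the nearest to the filter's 4.96.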

Other observations

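A further probe set lists Cldn10 together with Dzip1 and was not used for either gene. Its group means from P0 to P15 were 5.86, 6.17, 6.03, 6.10 and 6.18 in KO glands and 6.01, 6.07, 6.04, 5.62 and 6.05 in WT glands. Its mean at P15 lay above its mean at P0 in both genotypes, whereas the probe set of Cldn10 alone was lower at P15 in both. Within groups the SDs of the shared probe set were 0.0581 to 0.379, and no test was made of it.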
